A study of Caenorhabditis elegans with 6 samples.

Results

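The insulin-like peptide genes of the nematode Caenorhabditis elegans were compared between an ung-1 mutant and the wild type strain N2, with 3 arrays of the mutant and 3 of N2. They were taken as the genes named daf-28 or ins followed by a number, wherever a probe set carried that symbol and no other. This gave 25 probe sets for 24 genes, out of 17118 genes named on the array. Where a gene had more than 1 probe set, the brightest by mean intensity stood for it. The mutant is labelled by ung-1, the gene of the enzyme that removes uracil from DNA. The series' design text speaks of RNAi mutants where the sample labels speak of a mutant. No allele, stage, sex, food or DNA damaging treatment is given, so whether the gene is missing or only reduced is not known from the labels. N2 is the standard laboratory strain and carries no named alteration. Each sample's total RNA was labelled with biotin and run on 1 Affymetrix array that covers the worm genome. A value is the linear brightness of a probe set, in arbitrary units.

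Insulin-like peptides are small secreted hormones that act on DAF-2, the insulin receptor homologue of the worm. Activating peptides switch on a kinase cascade that keeps the FOXO transcription factor DAF-16 out of the nucleus, while antagonising peptides oppose this. The family is made mostly in neurons and the intestine and is known for its part in dauer formation, growth, germline proliferation, stress resistance and lifespan.

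The gene table of assembly WBcel235 lists 40 genes of the family, 1 of them (ins-38) a pseudogene. The remaining 16, which are ins-8, ins-9, ins-10, ins-12, ins-13, ins-14, ins-15, ins-16, ins-19, ins-20, ins-25, ins-27, ins-28, ins-29, ins-36 and ins-38, were not analysed here. All 24 measured genes had an entry in that table. Array medians ranged over 152.82 to 160.99 for the mutant, against 158.32 to 167.85 for N2, the highest being that of N2 replicate 2. The ung-1 probe set read 54.9, 55.3 and 47.7 on the mutant arrays, against 236, 254 and 296 on the N2 arrays, with no overlap, so the genotype labels matched its level. Nothing in the labels says that replicates came from separate cultures beyond calling them biological. The p-values set the difference between the groups against the spread between these arrays within a group.

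The insulin-like peptide probe sets were mostly dim. Their means over the 6 arrays ran between 42.5 for ins-21 and 401 for ins-17, with a median of 121 where all probe sets had 166. Of the 24 genes, 16 lay below the median probe set, 8 lay under the 25th percentile and 0 over the 75th. No detection calls were used, so how far the dim genes stood above background is unknown, and the brightness of a probe set gives no order of transcript abundance between genes. The dimmest 4 were ins-21, ins-30, ins-3 and ins-26, and the brightest 4 were ins-17, ins-18, ins-35 and ins-39.

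**Figure D1:**
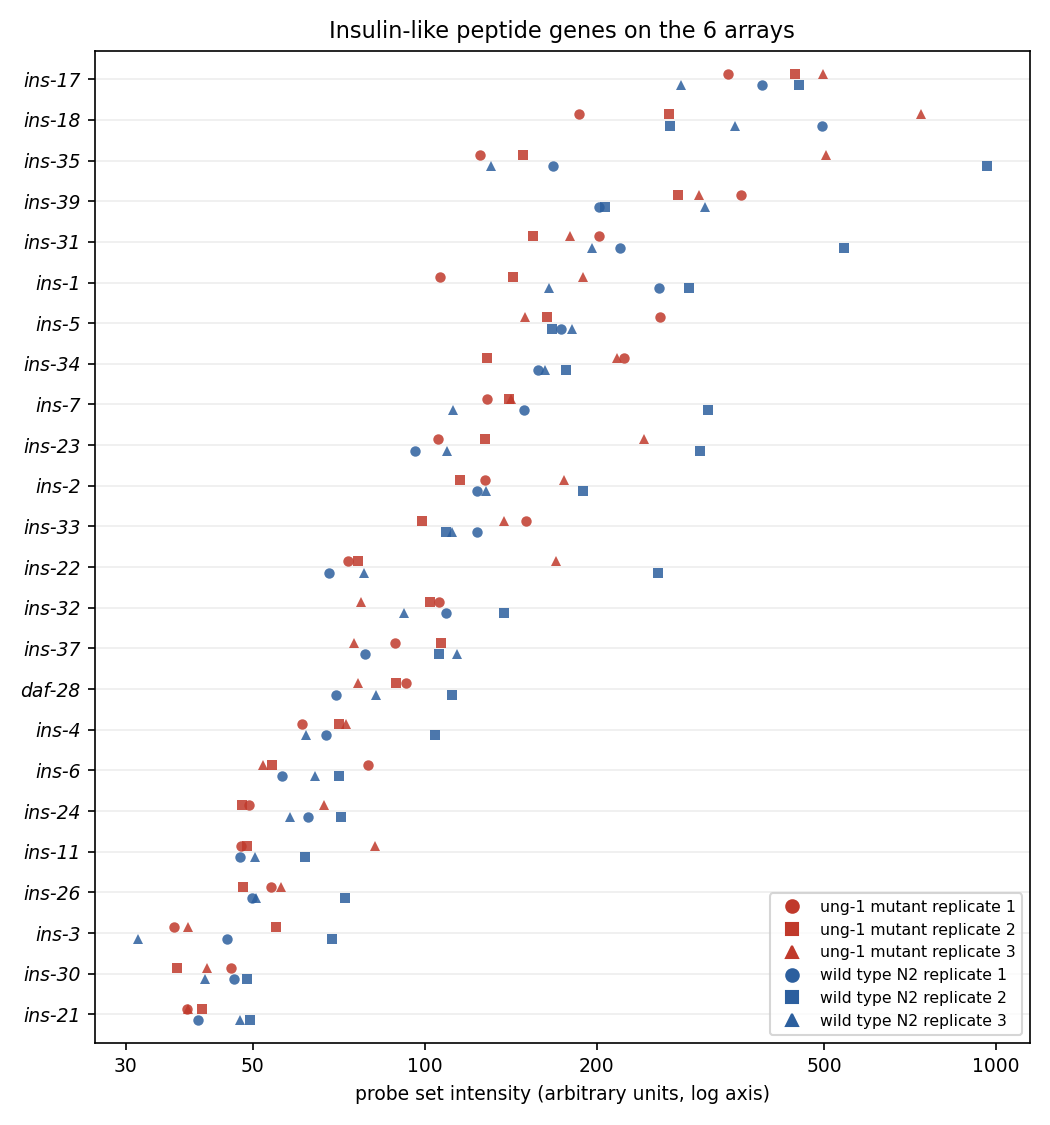
Probe set intensity (horizontal log axis, arbitrary units) of the 24 insulin-like peptide genes on each of the 6 arrays, ordered by mean, with mutant arrays in red above N2 arrays in blue and the marker shape giving the replicate. The colours overlap in every row, and the blue square of N2 replicate 2 is the rightmost point in 15 of 24 rows.

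The comparison asked whether any of these genes differed between the mutant and N2. None passed limma's Benjamini-Hochberg adjusted threshold of 0.05 over all 22548 probe sets, and the background was the same, at 0.0% of all probe sets. The ung-1 probe set itself did not pass, with a log2 fold change of -2.01 and a limma adjusted p of 0.0765. Failing this threshold is therefore weak evidence that a gene did not change. No member had an unadjusted p under 0.05, where 1.93% of all probe sets did (0.687% higher and 1.24% lower in the mutant). No member had its 3 mutant arrays apart from its 3 N2 arrays, where 6.69% of all probe sets did (2.31% higher and 4.38% lower in the mutant). With 1 array left out the member count was 0 to 6, the 6 without N2 replicate 3, where 19.7% of all probe sets had groups apart; it was 3 without each mutant array in turn, with 12.4% to 22.1% of all probe sets. The adjusted p was at least 0.999 for each of the 24 genes. Log2 fold changes, given throughout as the mutant minus the N2 mean of log2(intensity + 16), ran between -0.64 and 0.38. Their median was -0.10, with 7 positive and 17 negative, beside a median of -0.03 over all probe sets, 44.5% of which were positive. The change was smaller than 0.25 in size for 19 genes and larger than 0.5 for 2, ins-1 and ins-31. For 17 of the 24 genes the 95% confidence interval lay inside a log2 change of 1 either way. This is a 2-fold change of intensity + 16, and in dim genes it leaves room for a larger change of the intensity itself. In RNA of whole samples, fewer cells of a type cannot be told apart from less RNA per cell. The remaining intervals, those of ins-1, ins-7, ins-18, ins-22, ins-23, ins-31 and ins-35, reached past a log2 change of 1. Array by array, relative to each gene's mean, the family median was -0.14, -0.15 and 0.04 for replicates 1, 2 and 3 of the mutant, against -0.07, 0.27 and -0.10 for those of N2. Over all probe sets the same medians were 0.02, -0.04 and -0.06 in the mutant and -0.01, 0.06 and -0.02 in N2. N2 replicate 2 was thus highest there too, by less. Without N2 replicate 2 the sign of the family's median fold change turned, to 0.07 with 16 genes positive.

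**Figure D2:**
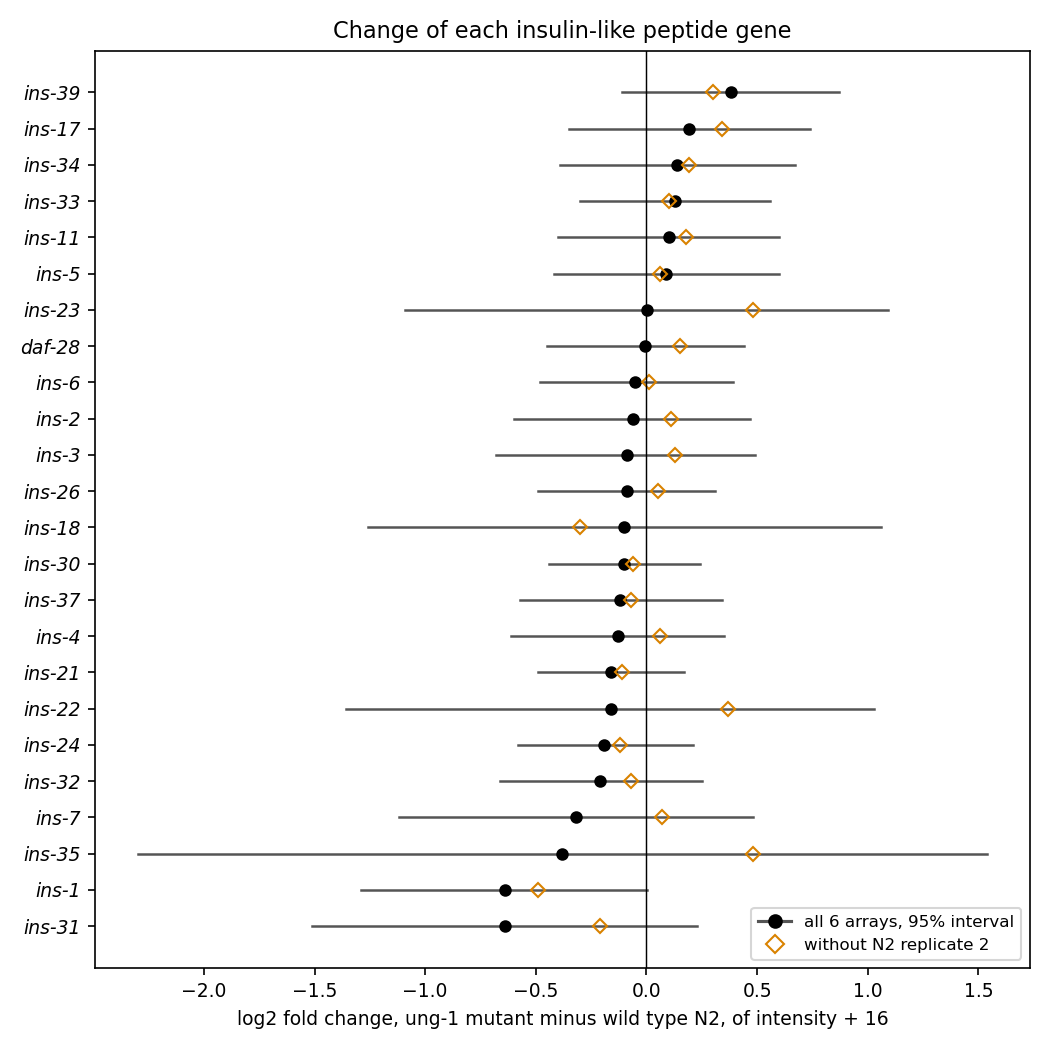
Log2 fold change, mutant minus N2, of each of the 24 genes (black points, all 6 arrays, with 95% confidence intervals from limma) and the same value without N2 replicate 2 (open diamonds). The interval of each gene crosses 0, and 9 diamonds lie on the other side of 0 from their points, those of ins-35, ins-22, ins-7, daf-28, ins-2, ins-3, ins-4, ins-6 and ins-26.

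Among the peptides known to activate DAF-2 signalling, 7 were measured, and 1 was positive and 6 negative, with a median log2 fold change of -0.09. Of the 7 genes, 5 were highest on N2 replicate 2, where 31.2% of all probe sets were. Without that array each of the 7 was positive, from 0.01 for ins-6 to 0.48 for ins-35, so the lean to negative rested on it. The peptides DAF-28, INS-4 and INS-6 are made in sensory neurons and hold back entry into the dauer stage. The daf-28 probe set read 93.0, 89.2 and 76.5 in the mutant, against 69.9, 112 and 82.2 in N2. The mutant values lay inside the N2 range, and the log2 fold change was -0.0075 (95% confidence interval -0.45 to 0.44). For ins-4 the intensities were 60.9, 70.9 and 72.9 in the mutant and 67.2, 104.2 and 61.9 in N2 (log2 fold change -0.13, interval -0.61 to 0.35). The highest ins-4 value was that of N2 replicate 2, and the other 5 arrays lay close together. The ins-6 probe set gave 79.5, 54.1 and 52.1 in the mutant, against 56.4, 70.7 and 64.4 in N2 (-0.05, interval -0.48 to 0.39), with the highest and the lowest array both in the mutant.

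The peptides INS-3 and INS-33 promote germline proliferation in larvae. The ins-3 probe set, one of the dimmest, read 36.4, 55.0 and 38.6 in the mutant and 45.1, 68.8 and 31.5 in N2 (log2 fold change -0.09, interval -0.68 to 0.49). For ins-33 the values were 150, 98.8 and 138 in the mutant, against 124, 109 and 112 in N2 (0.13, interval -0.30 to 0.56). In both genes the ranges overlapped, and in ins-33 the mutant arrays spread more widely than the N2 arrays.

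The activating peptide INS-7, made in neurons and the intestine, is encoded by a gene that DAF-16 represses. Its probe set gave 129, 141 and 141.7 in the mutant, against 149, 313 and 112 in N2. The mutant arrays lay within a narrow range, and N2 replicate 2 stood 2.10-fold above the next highest array. The log2 fold change was -0.32 (SE 0.34, interval -1.12 to 0.48) and became 0.07 without N2 replicate 2. The gene ins-35, whose product acts in control of the dauer stage, varied most among the members. It read 125, 149 and 504 in the mutant, against 168, 966 and 130 in N2, a 7.72-fold range. Its mutant mean was 259 ± 212 and its N2 mean 421 ± 472 (SD, n = 3 each). The high arrays were mutant replicate 3 and N2 replicate 2, one in each genotype, and the remaining 4 arrays lay between 125 and 168. The log2 fold change of -0.38 (SE 0.81, interval -2.30 to 1.54) became 0.48 without N2 replicate 2 and -0.97 without mutant replicate 3.

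Antagonising peptides were represented by 4 genes, of which 2 were positive and 2 negative. The gene ins-1, whose product resembles human insulin and opposes DAF-2 signalling, had the smallest unadjusted p of the family. It read 106, 143 and 189 in the mutant, against 257, 290 and 165 in N2. Mutant replicate 3 lay above N2 replicate 3, so the groups overlapped by that pair of arrays. The means were 146 ± 41.6 in the mutant and 237 ± 64.8 in N2 (SD, n = 3 each), a ratio of 0.62. The log2 fold change was -0.64 (SE 0.27, interval -1.29 to 0.0037), with a limma p of 0.051 before adjustment and an adjusted p of 0.999. With 1 array left out the value lay between -0.87 and -0.45.

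The products of ins-17 and ins-18 favour dauer formation. The ins-17 probe set gave 340, 446 and 497 in the mutant, against 389, 453 and 281 in N2 (log2 fold change 0.19, interval -0.35 to 0.74). Here the highest array was of the mutant and the lowest of N2, with the rest interleaved. The ins-18 probe set gave 187, 268 and 741 in the mutant, against 497, 269 and 349 in N2. Its lowest and its highest array were both mutant, replicates 1 and 3, and the log2 fold change of -0.10 (interval -1.26 to 1.06) became -0.65 without mutant replicate 3 and 0.30 without mutant replicate 1. For ins-11, an intestinal peptide gene, the values were 47.8, 48.9 and 81.9 in the mutant and 47.6, 61.7 and 50.6 in N2 (0.10, interval -0.40 to 0.60). The suffix of its probe set name is that of probe sets shared by several transcripts.

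The remaining members have less settled roles and are given by their place in the genome, since many genes of the family stand next to each other. On chromosome III, ins-21, ins-22 and ins-23 follow each other with no other gene between them in the gene table. The ins-22 probe set read 73.6, 76.6 and 170 in the mutant, against 68.1, 256 and 78.4 in N2, and ins-23 read 105, 127 and 242 in the mutant, against 96.2, 303 and 110 in N2. Both genes were thus high on mutant replicate 3 and N2 replicate 2 and low on the other 4 arrays, as ins-35 on chromosome V was. Their log2 fold changes were -0.16 (interval -1.36 to 1.03) and 0.00039 (-1.09 to 1.09), and 0.37 and 0.48 without N2 replicate 2. The third gene of the group did not show it: ins-21, the dimmest member, read 38.4, 40.8 and 38.5 in the mutant, against 40.1, 49.6 and 47.6 in N2 (-0.16, interval -0.49 to 0.17).

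On chromosome II, ins-2, ins-3, ins-4, ins-5 and ins-6 follow each other in this order. Of these, ins-2 gave 128, 116 and 175 in the mutant, against 124, 189 and 128 in N2 (log2 fold change -0.06, interval -0.60 to 0.47), again with mutant replicate 3 and N2 replicate 2 highest. The next but one neighbour of ins-3, ins-5, gave 259, 164 and 150 in the mutant, against 173, 167 and 181 in N2 (0.09, interval -0.42 to 0.60), with mutant replicate 1 alone standing high. The 5 neighbours had their highest array at N2 replicate 2 in ins-2, ins-3 and ins-4 and at mutant replicate 1 in ins-5 and ins-6. Elsewhere on this chromosome, ins-31 read 202, 155 and 180 in the mutant, against 220, 541 and 197 in N2. N2 replicate 2 stood 2.46-fold above the next array. The means were 179 ± 23.6 in the mutant and 319 ± 193 in N2 (SD, n = 3 each), and the log2 fold change of -0.64 (interval -1.51 to 0.23) became -0.21 without that array. For ins-32 the values were 106, 102 and 77.5 in the mutant and 109, 138 and 92.0 in N2 (-0.21, interval -0.66 to 0.25), and ins-37 ran over 75.2 to 107 in the mutant, against 78.6 to 114 in N2 (-0.12, interval -0.57 to 0.34).

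The neighbours ins-24, ins-30 and ins-26 on chromosome I were all dim. Their mutant values lay between 36.8 and 66.6, and their N2 values between 41.3 and 72.6. The log2 fold changes were -0.19 (interval -0.58 to 0.21) for ins-24, -0.10 (-0.44 to 0.24) for ins-30 and -0.09 (-0.49 to 0.31) for ins-26. As for ins-11, the name of the probe set that stands for ins-24 has the suffix of probe sets shared by several transcripts. A second ins-24 probe set, without this suffix, read 54.1, 51.0 and 52.7 in the mutant, against 56.2, 56.7 and 59.7 in N2. On it the mutant arrays lay just below the N2 arrays without overlap, with a log2 fold change of -0.10 (interval -0.41 to 0.21) and an adjusted p of 0.999 in limma. On the X chromosome, ins-39 read 358, 278 and 302 in the mutant, against 202, 207 and 309 in N2. Its means were 313 ± 41 in the mutant and 239 ± 60.6 in N2 (SD, n = 3 each), and N2 replicate 3 fell inside the mutant range. This was the most positive change of the family, 0.38 (SE 0.21, interval -0.11 to 0.87), which did not pass (limma adjusted p = 0.999). The last member, ins-34 on chromosome IV, gave 223, 129 and 217 in the mutant, against 158, 177 and 162 in N2 (0.14, interval -0.39 to 0.67).

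Values of some members varied widely over the 6 arrays. The highest array exceeded the lowest by 3-fold or more in 5 of 24 genes, ins-35, ins-18, ins-22, ins-31 and ins-23, where 9.68% of all probe sets did so. At 2-fold or more there were 8 of 24, near the 31.7% of all probe sets, and the median SD over the 6 arrays was 0.26 for the members and 0.25 for all probe sets (log2). N2 replicate 2 was the highest array for 15 of the 24 genes and the lowest for 0. Over all probe sets it was highest for 31.2% and lowest for 17%. The 2 highest arrays were mutant replicate 3 and N2 replicate 2, in either order, for 9 of 24 genes, against 8.30% of all probe sets. These counts describe a pattern seen in the same arrays and were not tested, and members that vary together are not independent of each other.

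**Figure D3:**
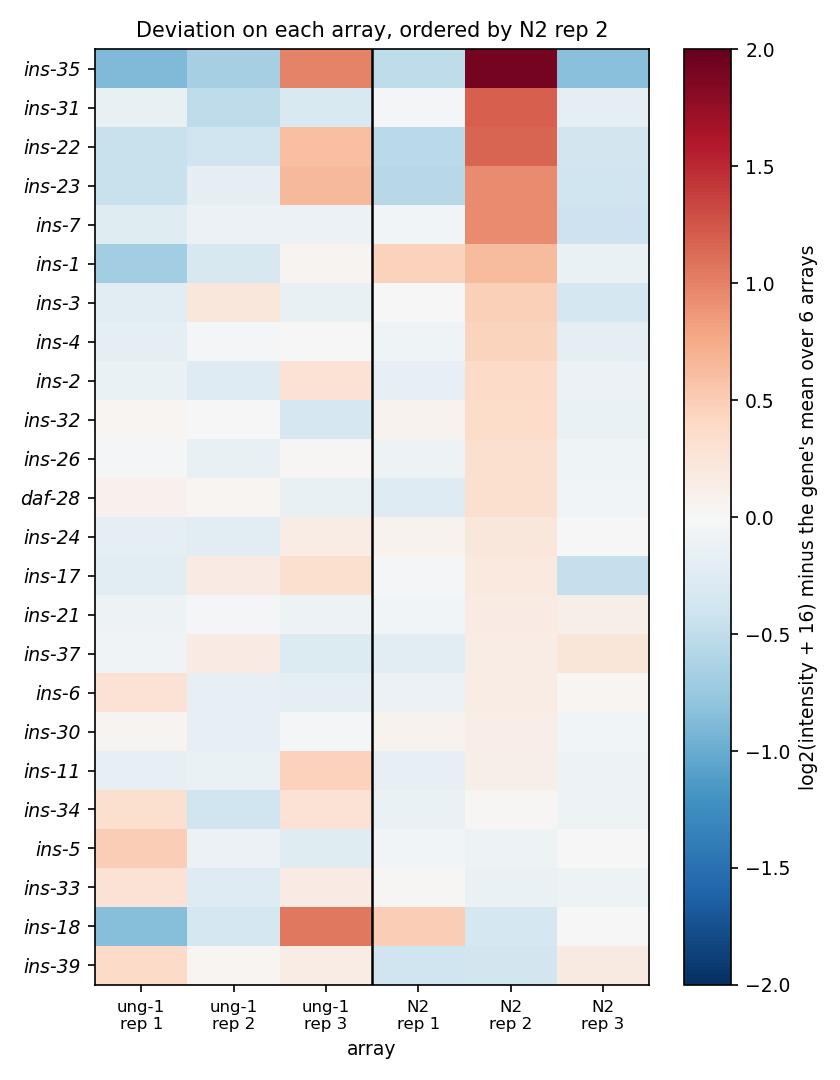
Deviation of each insulin-like peptide gene on each array from its own mean over the 6 arrays, on the scale log2(intensity + 16), with mutant arrays left of the line and N2 arrays right of it, ordered by the value on N2 replicate 2. The column of N2 replicate 2 is red for most genes, and ins-35, ins-22 and ins-23 are also red on mutant replicate 3.

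Cell type markers and other genes of the insulin pathway were set beside these arrays. The proteins from the receptor to DAF-16 were represented by 13 of 13 listed genes, with 0 past the threshold in either direction, 5 positive and 8 negative, and a median log2 fold change of -0.06. Groups of arrays did not overlap for 1 of the 13, where 6.69% of all probe sets had this. It was pdk-1, the gene of a kinase that activates AKT, with 135, 141 and 146 in the mutant, against 185, 163 and 162 in N2 (-0.25, SE 0.14, limma adjusted p = 0.999). Averaged over all probe sets of the gene, the pdk-1 change was -0.10. The gene of the FOXO factor itself, daf-16, had 0.18 (SE 0.19), which did not pass, and 0.08 averaged over its probe sets. Its arrays overlapped.

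Enzymes and proteins that process prohormones and release dense core vesicles were represented by 11 of 12 listed genes, with 0 past the threshold, 6 positive and 5 negative, and a median of 0.07. The proprotein convertase gene egl-3 read 1602, 3390 and 6048 in the mutant, against 7043, 2077 and 4609 in N2 (a log2 change of -0.34, SE 0.59, and -0.10 averaged over its probe sets). It was lowest on mutant replicate 1 and highest on N2 replicate 1 and mutant replicate 3. The carboxypeptidase gene egl-21 gave 621, 2259 and 2442 in the mutant, against 2171, 665 and 1228 in N2 (0.31, SE 0.62), with mutant replicate 1 and N2 replicate 2 low. The vesicle protein gene ida-1 had 0.37 (SE 0.24), which did not pass. Over the list the medians relative to each gene's mean were -0.42, 0.25 and 0.42 on mutant replicates 1, 2 and 3, and 0.25, -0.27 and -0.07 on those of N2. By these medians the processing genes were lowest on mutant replicate 1. They were next lowest on N2 replicate 2, the array on which most insulin-like peptide genes ran highest. Markers of neurons had the same lowest arrays in the same order, at -0.53 and -0.34. The antagonist gene ins-18 had the same 2 highest arrays and the same lowest array as egl-3.

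Target genes of DAF-16 were represented by 11 of 12 listed genes, of which 0 passed, with 5 positive and 6 negative and a median log2 fold change of -0.03. The metallothionein gene mtl-1 read 1432, 2248 and 1607 in the mutant, against 2206, 7035 and 1242 in N2 (a log2 change of -0.63, SE 0.59). The gene dod-3, which DAF-16 activates, read 2070, 3704 and 1531 in the mutant, against 2849, 9001 and 1515 in N2 (-0.57, SE 0.65). For the ferritin gene ftn-1 the values were 513, 1642 and 1228 in the mutant and 1315, 3273 and 1153 in N2 (-0.74, SE 0.54). All 3 genes had their highest array at N2 replicate 2, as ins-7, ins-31 and ins-35 did. Of the 11 listed targets 5 did so, where 31.2% of all probe sets did. The list medians relative to each gene's mean were -0.53, 0.25 and 0.04 on mutant replicates 1, 2 and 3. They were 0.04, 0.20 and -0.25 on those of N2, so the list as a whole was highest on mutant replicate 2. Without N2 replicate 2, mtl-1 had 0.06, dod-3 0.13 and ftn-1 -0.28. The superoxide dismutase gene sod-3 had another pattern, with its highest array, 3612, at mutant replicate 3 and 1397 on N2 replicate 2. The target lea-1 was highest on N2 replicate 3, at 12238, with 9771 on N2 replicate 2 (a log2 change of -0.13, SE 0.15).

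**Figure D4:**
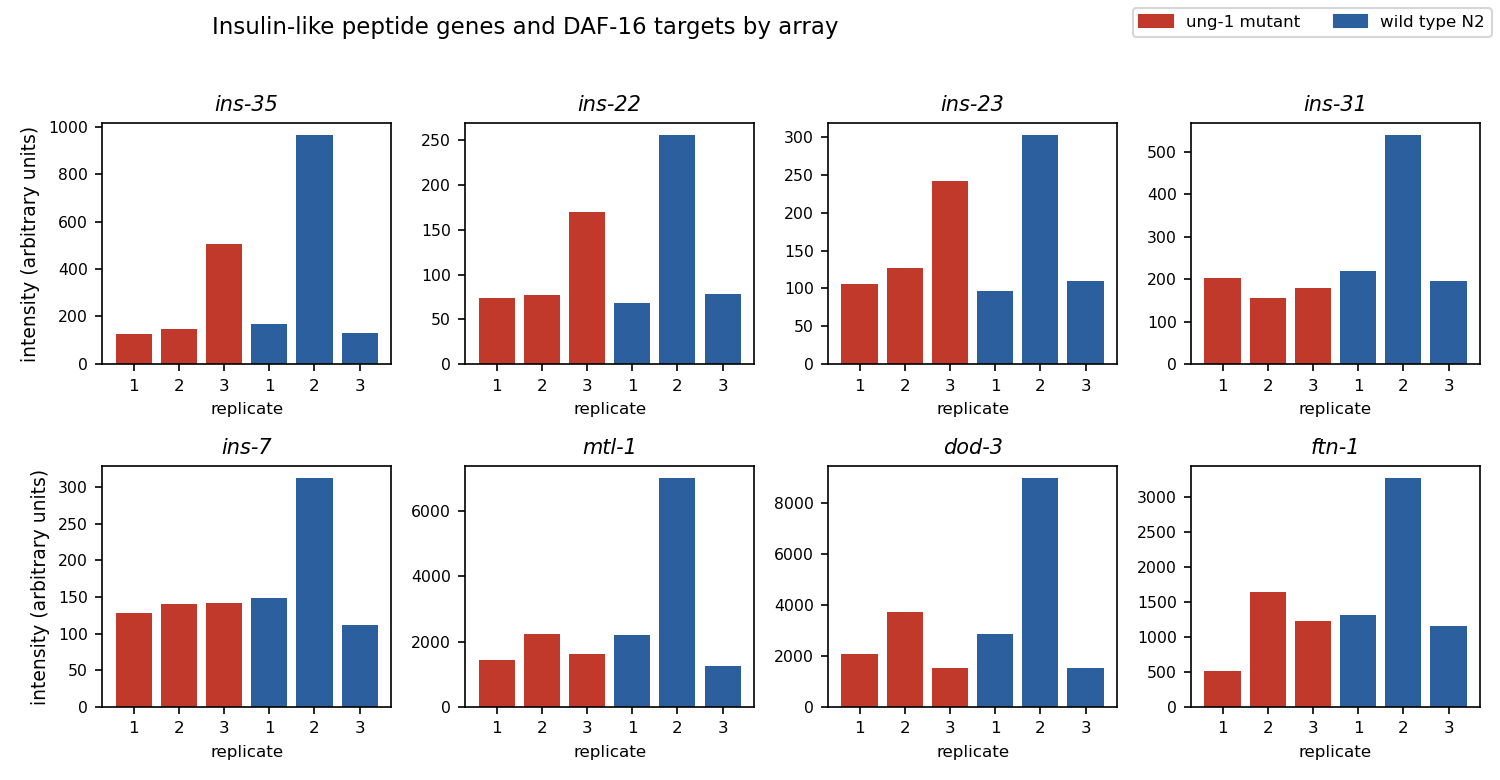
Intensity (bars from 0, arbitrary units, 1 bar per array) of 5 insulin-like peptide genes and the DAF-16 targets mtl-1, dod-3 and ftn-1, with mutant arrays in red left of N2 arrays in blue. The genes shown were chosen with their values known, and members and targets with another highest array are left out. That N2 replicate 2 is the tallest bar in each panel follows from this choice. Mutant replicate 3 is the second tallest for ins-35, ins-22 and ins-23.

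Levels of cell type markers differed between arrays of the same genotype. Markers of neurons, 10 of 10 measured, had medians relative to each gene's mean of -0.53, -0.10 and 0.36 on mutant replicates 1, 2 and 3, and 0.41, -0.34 and 0.07 on those of N2. Their summed intensity was 8876 to 14733 for mutant arrays, against 9784 to 13952 for N2 arrays. Intestinal markers, 9 of 10 measured, stood at 0.08, 0.26 and -0.32 in the mutant and at 0.08, 0.24 and -0.33 in N2, with sums of 23824 to 38216 in the mutant, against 21760 to 38280 in N2. By these medians N2 replicate 2 was low in neuronal and high in intestinal markers, and mutant replicate 3 was the reverse. Single markers differed from their list: the intestinal marker ifb-2 was lowest on N2 replicate 2, and act-5 was highest on mutant replicate 3. Both arrays were high in ins-22, ins-23 and ins-35. Germline and oocyte markers, 10 of 10 measured, stood at 0.36, 0.10 and -0.60 in the mutant and at 0.06, -0.21 and 0.33 in N2, so that these 2 arrays were the lowest of the 6. Their sums were 23824 to 38329 in the mutant, against 29484 to 44476 in N2. Sperm markers, 10 of 10 measured, summed to 1744 to 4039 in the mutant, against 1691 to 2931 in N2, and epidermal markers, 10 of 10 measured, to 27228 to 32167 in the mutant, against 21311 to 30190 in N2. No marker passed limma's adjusted threshold. In the germline and oocyte list, 2 of 10 genes had an unadjusted p under 0.05 and groups apart, both lower in the mutant, where 1.24% and 4.38% of all probe sets did so. These were oma-2, an oocyte maturation gene, with -0.41 (SE 0.14, limma adjusted p = 0.999), and the eggshell proteoglycan gene cpg-1, with -0.38 (SE 0.16, limma adjusted p = 0.999). The part of these differences in the values of the insulin-like peptide genes was not tested. As a sign of RNA integrity, signal at the 3' end of the GAPDH control over that at its 5' end was 8.77, 5.01 and 6.08 in the mutant and 11.8, 8.30 and 10.6 in N2 (replicates 1, 2 and 3 of each). The same ratio for ubiquitin was highest on N2 replicate 2, at 5.32, with 3.95 to 5.15 on the other 5 arrays. For catalase it was highest on mutant replicate 3, at 32.2, with 25.89 to 30.96 on the others. The part of RNA integrity in the results was not tested.

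**Figure D5:**
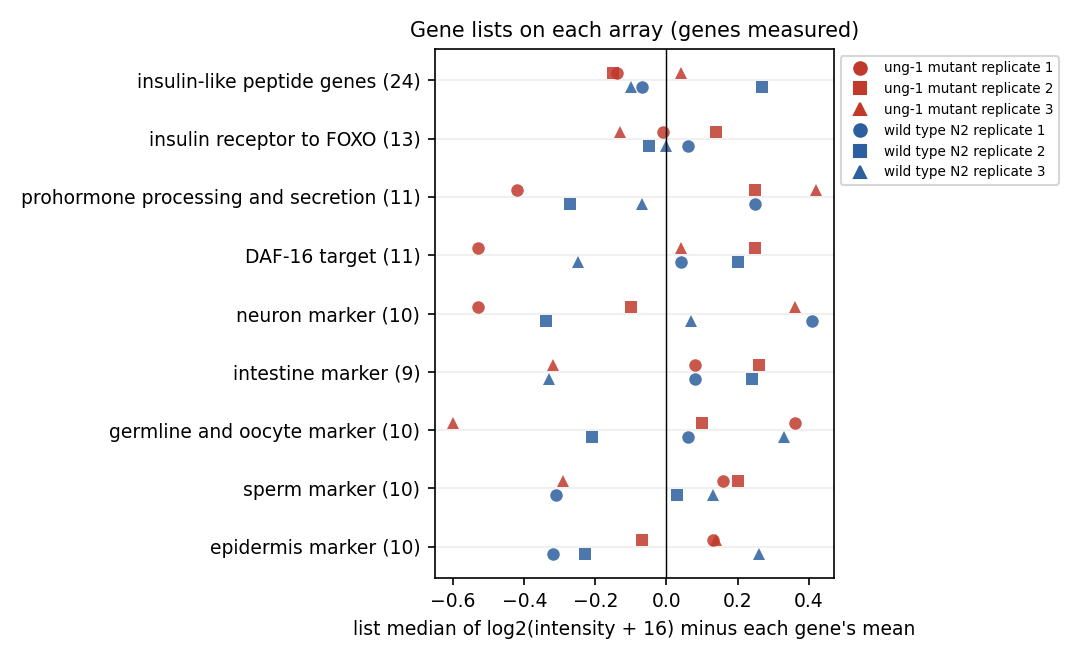
Median over each gene list of log2(intensity + 16) minus each gene's mean over the 6 arrays, 1 point per array, with mutant arrays in red above N2 arrays in blue and the number of measured genes in brackets. The genotypes overlap in every list, and for insulin-like peptide genes N2 replicate 2 lies at 0.27, to the right of the other 5 arrays.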

How the data were processed

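The deposited table holds 1 linear intensity per probe set for each of 6 arrays; how it was summarised, background corrected or scaled is not stated by the labels. RNA was extracted with Trizol and biotin-labelled, per the labels' protocols. In it 1361 large whole numbers equal spreadsheet dates (631 of a day and month, 730 of a month and year) and were read back as intensities between 1.17 and 31.12; 0 of them lay in an insulin-like peptide probe set. Control probe sets (77) were left out. Symbols came from the platform annotation; gene identifiers matched to WBcel235 changed 0 of them.

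Log2(intensity + 16) was tested with limma 3.58.1 in R 4.3.3, two-sided, with Benjamini-Hochberg adjustment over 22548 probe sets. An offset of 16 understates changes of dim genes. Only 3 arrays a group limit the precision. Figures used Python 3.11.15 and matplotlib 3.10.9.

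Members and gene lists were chosen with earlier results of these data known. Named were members with textbook roles, the 6 with the smallest p, the 4 brightest and 4 dimmest, genes with more than 1 probe set, and up to 4 per further list. The other members, sod-3, and the patterns over arrays were described after their values were seen. Of the listed genes, rab-2, ctl-1 and opt-2 were not analysed here. One result on the receptor pathway is not reported here, and other listed genes are given by count.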

Additional observations from a re-analysis of the deposited data

How the results depend on the processing

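No insulin-like peptide gene passed the adjusted threshold in any of the 20 other settings. The unadjusted limma p of ins-1 was under 0.05 in 8 of them, with an adjusted p of at least 0.669. In these 8, 1.61% to 6.89% of all probe sets had an unadjusted p under 0.05. The settings reuse the same arrays, and the main limma p of ins-1 was already 0.051, so the 8 are not separate evidence. The ins-18 and ins-39 probe sets had an unadjusted limma p under 0.05 in 1 setting each, where 5.31% and 3.96% of all probe sets did. Of the 24 genes, 7 kept their sign in each setting where they were measured: ins-1, ins-17, ins-21, ins-24, ins-30, ins-31 and ins-39. The family median lay between -0.16 and 0.07 when arrays were left out, was -0.04 with quantile normalization and -0.05 with median centring, where the median of all probe sets was 0.01 and 0.02, and was -0.01 with array weights. Over all probe sets, 6 passed with the values as deposited, ung-1 and 5 probe sets that hold date numbers, and 1, ung-1, with an intensity trend or with array weights.

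Signs turned for the following log2 fold changes, and the cause was not tested. With quantile normalization daf-28 had 0.06 and ins-6 0.02. With median centring daf-28 had 0.04, and with an offset of 50 ins-23 had -0.01. With array weights the values were 0.18 for daf-28, 0.09 for ins-3, 0.10 for ins-22, -0.04 for ins-33, -0.00092 for ins-34, 0.12 for ins-37, -0.03 for egl-21 and 0.02 for dod-3. With 1 array left out, or without both of mutant replicate 3 and N2 replicate 2 (a choice made after seeing the data), the ranges were -0.13 to 0.22 for daf-28, -0.22 to 0.11 for ins-2, -0.29 to 0.18 for ins-3, -0.25 to 0.06 for ins-4, -0.14 to 0.23 for ins-5, -0.20 to 0.10 for ins-6, -0.61 to 0.07 for ins-7 and -0.10 to 0.21 for ins-11. They were -0.85 to 0.30 for ins-18, -0.51 to 0.37 for ins-22, -0.32 to 0.48 for ins-23, -0.17 to 0.05 for ins-26, -0.33 to 0.05 for ins-32, -0.97 to 0.48 for ins-35 and -0.26 to 0.03 for ins-37. For egl-3 the range was -1.28 to 0.15, for egl-21 -0.45 to 0.95, for mtl-1 -1.18 to 0.11 and for dod-3 -1.15 to 0.41.

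Deviations from the group means of same-numbered arrays correlated at -0.187, 0.09 and 0.104 across probe sets. Those of arrays with different numbers correlated at -0.209 to 0.114. Deviations within a group of 3 arrays cancel, so these values are tied to each other and cannot decide whether the arrays were paired. With the replicate number as a block, 0 members and 0 probe sets passed, and 323 probe sets had an unadjusted p under 0.05, against 435 without the block. The family median was -0.10 with the block too. With the dimmest probe sets left out, 14 members were measured, with a median of -0.08.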
